A study of Mus musculus with 9 samples.

Results

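The interferon inducible GTPases described here are 10 genes of 2 related families, the guanylate binding proteins Gbp2, Gbp3, Gbp4, Gbp6, Gbp7 and Gbp9 and the immunity related GTPases Igtp, Irgm1, Irgm2 and Iigp1. They were taken by gene symbol, from a list chosen with earlier results of these data known, and make up 10 of the 55487 genes in the tables. All 10 were found once each and all 10 were among the 13043 genes with enough counts to be tested. Messenger RNA was measured in naive CD4+ T cells, helper T cells that have not yet met antigen, from lymph nodes of wild-type mice of the strain C57BL6/J. The fresh group received no treatment, the cultured group was kept for 20 h in vitro without added interleukin-1 beta (IL-1b), and the IL-1b-treated group was kept for 20 h with recombinant IL-1b, an inflammatory cytokine, at 10 ng/mL. Each group has 3 libraries, the genotype and strain are shared by all, and age and sex are not stated in the labels. Whether replicates are separate animals or cultures is not stated, and the p-values may thus reflect technical spread alone.

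Interferon gamma binds the receptor pair Ifngr1 and Ifngr2, whose kinases Jak1 and Jak2 start a signal that ends at GAS sites in promoters and induces the factor Irf1. Type I interferons act through Ifnar1 and Ifnar2, Jak1 and Tyk2, and a complex with Stat2 and Irf9 that binds the interferon stimulated response element (ISRE), a motif that Irf1 also recognises. The GTPases are among the strongest targets of both routes. Guanylate binding proteins assemble on pathogens and the vacuoles around them and link these to autophagy and inflammasomes, while the effector Irg proteins such as Iigp1 (also called Irga6) load onto the vacuole and the regulators Irgm1, Irgm2 and Igtp (Irgm3) keep the effectors inactive on the cell's own membranes.

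All 10 are annotated as protein coding in GENCODE M21 (GRCm38, the same assembly as mm10). Gbp7 (chr3:142530342-142550149, plus strand), Gbp3 (chr3:142560026-142573209, plus strand) and Gbp2 (chr3:142620602-142638008, plus strand) share a cluster on chromosome 3. Gbp9 (chr5:105077630-105139539, minus strand), Gbp4 (chr5:105115767-105139586, minus strand) and Gbp6 (chr5:105270702-105293698, minus strand) share a cluster on chromosome 5. Irgm1 (chr11:48861968-48871683, minus strand), Igtp (chr11:58199556-58207591, plus strand) and Irgm2 (chr11:58199618-58222782, plus strand) are on chromosome 11, where the annotated span of Irgm2 begins inside that of Igtp.

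The promoters of Igtp and Irgm2 are shown because the 2 genes are neighbours on chromosome 11, their promoters are close to identical, and their messengers moved in opposite directions in culture. Each line gives the 250 bases before the RefSeq start on the plus strand of GRCm38.p6, 5′ to 3′, with the ISRE core in capitals.
Igtp, chr11:58199306-58199555: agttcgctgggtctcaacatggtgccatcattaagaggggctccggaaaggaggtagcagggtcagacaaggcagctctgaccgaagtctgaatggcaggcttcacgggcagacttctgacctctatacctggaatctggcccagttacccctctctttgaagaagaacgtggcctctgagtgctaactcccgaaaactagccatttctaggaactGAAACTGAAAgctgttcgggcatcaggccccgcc
Irgm2, chr11:58214727-58214976: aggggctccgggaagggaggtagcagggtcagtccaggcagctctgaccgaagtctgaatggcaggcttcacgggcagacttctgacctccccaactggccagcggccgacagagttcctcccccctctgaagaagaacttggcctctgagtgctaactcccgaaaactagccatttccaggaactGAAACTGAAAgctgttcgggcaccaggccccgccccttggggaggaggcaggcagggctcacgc
A local alignment of the Igtp and Irgm2 promoters matched 197 of 214 aligned bases (92.1%). The ISRE core was searched as GAAA, any 2 bases and GAAA again, and GAS as TTCNNNGAA, both on both strands, and no ISRE match overlapped a GAS match in the members. In Igtp the ISRE core GAAACTGAAA began 34 bases before the start and the GAS match TTCTAGGAA 45 bases before it. In Irgm2 the core with the letters GAAACTGAAA began 64 bases before the start, next to the GAS match TTCCAGGAA that began 75 bases before it.

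The other members with a RefSeq promoter are shown by the stretch around their ISRE core, on their own strand and with the core or the overlapping cores in capitals.
Irgm1, chr11:48871428-48871457, minus strand: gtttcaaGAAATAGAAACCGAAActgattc
Gbp2, chr3:142620597-142620620, plus strand: cttttagTTTCACTTTCactgtct
Gbp3, chr3:142559992-142560021, plus strand: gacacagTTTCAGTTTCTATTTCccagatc
Gbp7, chr3:142530276-142530299, plus strand: tgtgcagTTTCAGTTTCagttctc
Entries were matched for 6 of the 10 members, and Gbp4, Gbp6, Gbp9 and Iigp1 had none. An ISRE core was found in 6 of the 6 members and in 6 of their 7 promoters, the exception being the second start of Gbp3, against 2.98% of 32851 mouse promoters of the same length. GAS was found in 3 of the 7 promoters (Gbp7, Igtp and Irgm2), against 7.02% of all promoters. Igtp and Irgm2, which moved in opposite directions, each held both motifs. A match is a description of the letters, not a measured binding site.

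In fresh cells these messengers were abundant. The 10 genes together held 853 ± 7.53 TPM (a level per transcript length, scaled to the library, SD, n = 3), and 9 of the 10 lay above the median of 18.6 TPM of all tested genes. Igtp was highest at 203 ± 2.72 TPM, placing it 619th of 13043 tested genes, followed by Gbp4 at 159 ± 6.24, Irgm1 at 101 ± 2.11, Gbp9 at 83.7 ± 3.48 and Gbp6 at 74.6 ± 5.05. Gbp2 (59.8 ± 2.61), Irgm2 (57.5 ± 1.54), Gbp7 (53.8 ± 1.14) and Iigp1 (51.5 ± 3.65) formed a close group, in which the ranges of Gbp2 and Irgm2 overlapped, as did those of Gbp7 and Iigp1. Gbp3 was lowest at 9.48 ± 1.22 TPM.

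After culture without IL-1b, 8 of the 10 members fell and 2, Igtp and Gbp4, rose, each past an adjusted p of 0.05 (edgeR quasi-likelihood test, Benjamini-Hochberg over all 13043 genes). Changes were common in this comparison: 58.2% of all tested genes were called, 29.4% higher and 28.9% lower. The members' median log2 fold change on the scale of normalised counts was -0.65, against 0.00 over all tested genes. Iigp1, Gbp6, Irgm1 and Gbp2 were at least 2-fold lower, and 6.83% of all tested genes were called with a fall of that size. In TPM, 9 of the 10 members had fresh and cultured ranges that did not overlap, the exception being Gbp4, against 60.4% of all tested genes. On log2(TPM + 1), tested with limma, 1877 of all tested genes were higher and 4842 lower, and the direction of Gbp4 turned. In bulk RNA, fewer cells of a type and less RNA per cell cannot be told apart. Most tested markers of B cells, neutrophils and NK cells also fell in culture, from 185 to 246 CPM to 11.8 to 15.8 CPM in sum for B cells.

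Irgm1 is a regulatory Irg protein also known for roles in autophagy and in the survival of lymphocytes. Its TPM was 102, 98.3 and 102 in the fresh libraries, 25.8, 22.4 and 25.5 in the cultured and 20.1, 20.5 and 19.9 in the IL-1b-treated. Every fresh library stood far above every cultured one, and the cultured libraries stood above the IL-1b-treated on this scale. Between those 2 groups 48.8% of all tested genes were apart in TPM. On normalised counts Irgm1 had means of 36.5 CPM in cultured and 37.5 CPM in IL-1b-treated cells. The log2 fold change of Irgm1 on normalised counts was -1.81 ± 0.06 (SE, adjusted p = 6.2e-17, edgeR) in culture against fresh.

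Iigp1, the effector Irg protein of the set, lies on chromosome 18 (60376027 to 60392634, plus strand). With Gbp6 counted alone it fell the most of the 10, from 54.9, 51.9 and 47.6 TPM in fresh cells to 11.9, 11.4 and 12.1 in cultured cells, with 11.4, 10.7 and 10.5 in IL-1b-treated cells. The fresh libraries did not overlap with the other groups. Its log2 fold change in culture was -1.95 ± 0.07 (SE, adjusted p = 3.2e-16, edgeR), 3.86-fold.

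Gbp6 is a guanylate binding protein of the cluster on chromosome 5. Its TPM was 78.0, 77.02 and 68.8 in fresh, 18.1, 18.1 and 15.9 in cultured and 13.0, 12.8 and 14.7 in IL-1b-treated libraries. The 3 groups were apart in TPM, as were 48.8% of all tested genes between the 2 cultured groups. On normalised counts Gbp6 had means of 39.7 CPM in cultured and 39.6 CPM in IL-1b-treated cells. Its log2 fold change in culture was -1.89 ± 0.07 (SE, adjusted p = 1.18e-16, edgeR). The split of reads is uncertain for this gene: 67.3% of its 75-base stretches also occur in other genes, 61.7% in the gene model Gm43302 that overlaps its exons, and its expected counts were not whole in 9 of the 9 libraries. Summed over Gbp6, Gbp10 and Gm43302, the level was 178 ± 10.4 CPM (normalised counts scaled to the library total) in fresh, 41.0 ± 1.51 in cultured and 41.3 ± 2.43 in IL-1b-treated cells (SD, n = 3), a log2 fold change of -2.12 in culture.

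Gbp2, a member of the cluster on chromosome 3 that needs a lipid anchor to reach membranes, was at 56.9, 61.0 and 61.7 TPM in fresh cells, 24.6, 23.4 and 21.7 in cultured cells and 24.0, 28.5 and 25.4 in IL-1b-treated cells. Fresh libraries were separate from both cultured groups, which overlapped with each other on this scale. Its log2 fold change in culture was -1.12 ± 0.07 (SE, adjusted p = 3.48e-12, edgeR).

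Gbp9, Gbp7 and Irgm2 fell by less. Gbp9 was at 79.8, 86.5 and 84.9 TPM in fresh, 39.7, 40.5 and 41.7 in cultured and 33.6, 34.4 and 36.4 in IL-1b-treated libraries, a log2 fold change of -0.72 ± 0.04 (SE) in culture. Gbp7 was at 52.9, 53.5 and 55.1 TPM in fresh, 29.4, 30.5 and 30.3 in cultured and 23.1, 21.7 and 23.5 in IL-1b-treated libraries, a log2 fold change of -0.59 ± 0.05 (SE) in culture. In both genes the 3 groups were apart in TPM. Some reads of Gbp7 could belong to the pseudogene Gm43802, and the sum of the 2 loci went from 147 ± 5.13 to 98.2 ± 1.59 CPM in culture (SD, n = 3). Irgm2, a regulatory Irg protein, was at 56.6, 59.3 and 56.7 TPM in fresh, 35.2, 35.7 and 33.8 in cultured and 29.5, 29.2 and 29.2 in IL-1b-treated libraries. Its groups were also apart, with a log2 fold change of -0.49 ± 0.05 (SE, adjusted p = 7.32e-09, edgeR) in culture. Between the 2 cultured groups 48.8% of all tested genes were apart in TPM. On normalised counts Gbp9, Gbp7 and Irgm2 were not called there.

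Gbp3 was the least abundant member and the most variable between replicates. Its TPM was 9.80, 10.5 and 8.13 in fresh, 4.78, 6.64 and 4.88 in cultured and 8.28, 4.36 and 6.92 in IL-1b-treated libraries. Fresh and cultured libraries were apart, while IL-1b-treated replicate 1 reached into the fresh range. Its log2 fold change in culture was -0.55 ± 0.15 (SE, adjusted p = 0.00356, edgeR), and with effective length as an offset its adjusted p was 0.0578, the highest over 24 alternatives (the lowest was 0.000814).

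Igtp rose in culture on each scale used. This regulatory Irg protein, found on lipid droplets and the endoplasmic reticulum, was at 205, 200 and 203 TPM in fresh, 265, 266 and 259 in cultured and 236, 226 and 226 in IL-1b-treated libraries. All 3 groups were apart, with cultured cells highest in TPM, whereas IL-1b-treated cells were highest on normalised counts. On normalised counts the log2 fold change in culture was 0.62 ± 0.03 (SE, adjusted p = 1.37e-13, edgeR), and over 24 alternatives it ranged from 0.38 to 0.63.

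Gbp4, the second most abundant member in each group, depended on the scale. Its TPM was 152, 164 and 162 in fresh, 157, 145 and 150 in cultured and 119, 117 and 128 in IL-1b-treated libraries. Fresh and cultured libraries overlapped, and the IL-1b-treated libraries were lowest. On normalised counts Gbp4 rose in culture by a log2 fold change of 0.23 ± 0.03 (SE, adjusted p = 3.59e-07, edgeR), with 345, 346 and 344 CPM in fresh and 403, 404 and 409 CPM in cultured libraries. On the scale of log2(TPM + 1), limma gave a log2 difference of -0.08 (adjusted p = 0.216, against 4.87e-15 to 0.221 over 24 alternatives). The median of all tested genes was itself at -0.195 on log2(TPM + 1) and at 0.00 on normalised counts. Gbp4 was above that median on both scales, and its distance from the median was not tested.

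**Figure D1:**
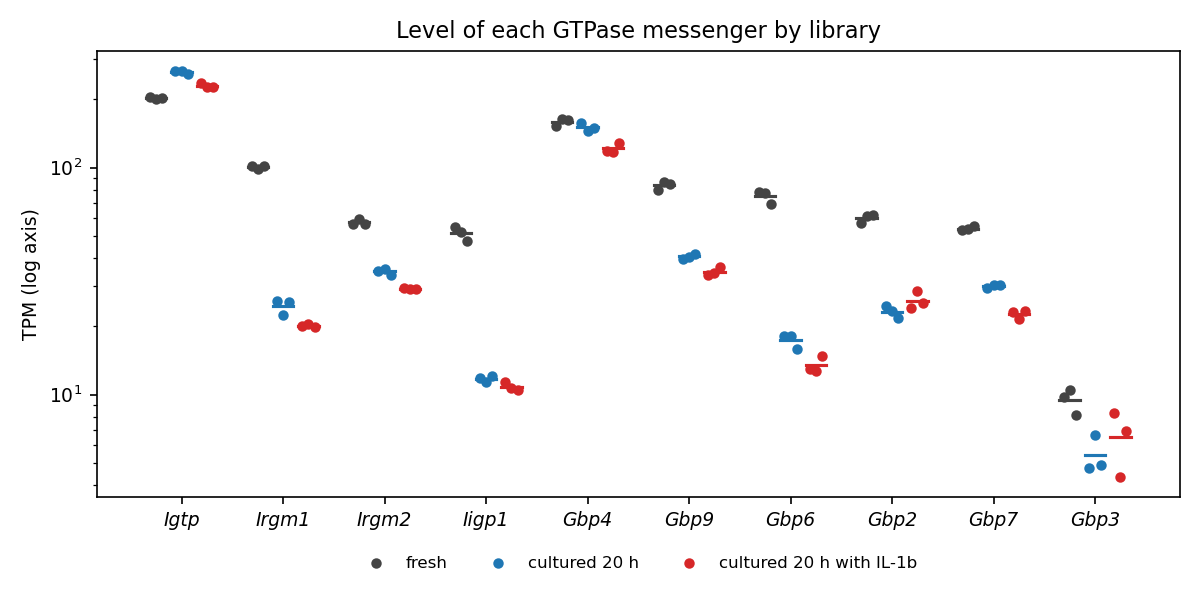
Level in TPM (log axis) of each of the 10 GTPase messengers in the 9 libraries, with 1 point per library and a line at the mean of each group of 3; dark grey is fresh, blue cultured 20 h and red cultured 20 h with IL-1b. Irgm1, Iigp1 and Gbp6 drop from 101, 51.5 and 74.6 TPM in fresh to 24.6, 11.8 and 17.4 TPM in cultured cells, Igtp rises from 203 to 263 TPM, and the fresh and cultured points of Gbp4 overlap.

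The unequal changes altered the make-up of the set. The summed level of the 10 genes was 602 ± 8.58 TPM in cultured cells and 515 ± 8.41 TPM in IL-1b-treated cells, down from 853 ± 7.53 TPM in fresh cells (SD, n = 3). Igtp held 23.7 ± 0.519% of the sum in fresh cells, 43.7 ± 0.522% in cultured cells and 44.6 ± 1.06% in IL-1b-treated cells. The share of Gbp4 went from 18.7% to 25.0% in culture and that of Irgm1 from 11.8% to 4.08%. The ratio of Igtp to its neighbour Irgm2 in TPM, which does not depend on the scaling of a library, was 3.37 to 3.62 in fresh libraries, 7.44 to 7.66 in cultured and 7.74 to 8.01 in IL-1b-treated. The exact permutation test of that ratio between cultured and fresh cells gave p = 0.1, two-sided, the smallest that 3 libraries against 3 allow. Igtp and Irgm2 share 162 annotated exon bases, and 7.8% of the 75-base stretches of Igtp also occur in Irgm2. The ratio of Gbp4 to Gbp9, whose annotated spans overlap on the same strand of chromosome 5 and share 60 exon bases, was 1.90 to 1.91 in fresh, 3.59 to 3.95 in cultured and 3.42 to 3.53 in IL-1b-treated libraries.

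**Figure D2:**
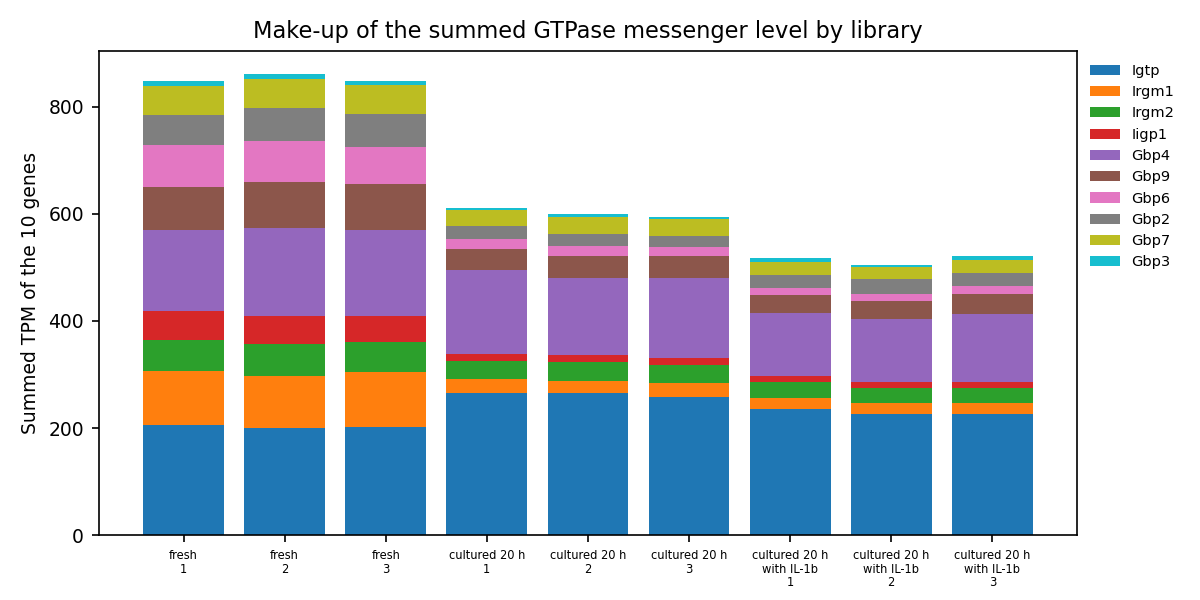
Summed TPM of the 10 GTPase messengers in each of the 9 libraries, stacked by gene and starting at 0. The mean sum is 853 TPM in fresh, 602 in cultured and 515 in IL-1b-treated cells, and the Igtp segment makes up 23.7% of the fresh and 43.7% of the cultured bars.

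In cultured cells the order of levels was Igtp (263 ± 3.92 TPM), Gbp4 (151 ± 5.80), Gbp9 (40.7 ± 1.01), Irgm2 (34.9 ± 1.02), Gbp7 (30.1 ± 0.594), Irgm1 (24.6 ± 1.88), Gbp2 (23.2 ± 1.49), Gbp6 (17.4 ± 1.29), Iigp1 (11.8 ± 0.316) and Gbp3 (5.43 ± 1.05), with SD and n = 3. Only Irgm1 and Gbp2 overlapped among neighbours in that order. Irgm1 thus went from the third to the sixth place. In IL-1b-treated cells Gbp2 took the fifth place at 26.0 ± 2.30 TPM, above Gbp7 at 22.7 ± 0.960 and Irgm1 at 20.2 ± 0.297, and no neighbours overlapped.

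IL-1b added during culture was followed by small differences. Against culture without it, 3 of the 10 members were called, all higher on normalised counts: Gbp2, Iigp1 and Igtp. In this comparison 28.9% of all tested genes were called, 15.6% higher and 13.3% lower. The members' median log2 fold change was 0.06, against -0.01 over all tested genes. Gbp2 had the largest difference, at 42.6, 40.5 and 37.7 CPM in cultured and 51.9, 61.8 and 55.1 CPM in IL-1b-treated libraries, which did not overlap. Its log2 fold change was 0.48 ± 0.07 (SE, adjusted p = 2.39e-05, edgeR). Iigp1 was at 21.4, 20.9 and 22.2 CPM without and 26.7, 26.0 and 25.8 CPM with IL-1b, a log2 fold change of 0.28 ± 0.08 (SE, adjusted p = 0.00832, edgeR). Igtp was at 353, 354 and 345 CPM without and 394, 376 and 379 CPM with IL-1b, a log2 fold change of 0.13 ± 0.03 (SE, adjusted p = 0.00373, edgeR).

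These calls depended on the scale. In TPM, 8 of the 10 members had ranges that did not overlap between the 2 cultured groups, against 48.8% of all tested genes, and all 8 were lower with IL-1b. On log2(TPM + 1), tested with limma, 7 members were lower with IL-1b and 3 not called, and over all tested genes 289 were higher and 4452 lower, against 2037 and 1731 on normalised counts. There Gbp2 was at 0.15 (adjusted p = 0.177, against 8.35e-10 to 0.177 over 24 alternatives) and Iigp1 at -0.11 (adjusted p = 0.343, against 0.00771 to 0.343), while Igtp turned to -0.20 (adjusted p = 0.00162, against 0.00153 to 0.818). The median difference of all tested genes between these groups was -0.253 on log2(TPM + 1) and -0.01 on normalised counts. Gbp2, Iigp1 and Igtp were above the median on both scales. So were Gbp3, Gbp9 and Irgm2, which were not called on normalised counts. Distance from the median was not tested. With library size alone as the scaling, where 1191 genes were higher and 3273 lower, Igtp was at 0.01 and Iigp1 at 0.17, neither called. An effective length offset, with 1234 genes higher and 917 lower, also ended both calls. There Igtp was at 0.11 (adjusted p = 0.0617, edgeR) and Iigp1 at 0.19 (adjusted p = 0.19, edgeR). Of the members not called, Gbp3 was at 0.22 ± 0.16, Irgm2 at 0.07 ± 0.05, Gbp9 at 0.05 ± 0.04, Irgm1 at 0.04 ± 0.07, Gbp4 at 0.04 ± 0.03, Gbp6 at -0.01 ± 0.07 and Gbp7 at -0.11 ± 0.05 (log2 fold change on normalised counts ± SE).

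The comparison of IL-1b-treated with fresh cells shares its libraries with the other comparisons. IL-1b-treated cells had 2 members higher (Igtp and Gbp4) and 7 lower, and in this comparison 65.5% of all tested genes were called, 32.9% higher and 32.6% lower. Log2 fold changes were -1.90 ± 0.07 for Gbp6, -1.77 ± 0.06 for Irgm1, -1.66 ± 0.07 for Iigp1, -0.64 ± 0.07 for Gbp2 and 0.75 ± 0.03 for Igtp (SE). Gbp3, at -0.33 ± 0.15 (SE, adjusted p = 0.0616, edgeR), was not called. It was called without fresh replicate 3 (adjusted p = 0.0357) or without IL-1b-treated replicate 3 (adjusted p = 0.0319), within a range of 0.00603 to 0.99 over 24 alternatives. Gbp6, Irgm1 and Iigp1 were at least 2-fold lower, and 9.58% of all tested genes were called with a fall of that size. In TPM, 9 members had ranges apart, all but Gbp3, against 69% of all tested genes. Gbp4, at 0.27 ± 0.03 on normalised counts, was at -0.39 on log2(TPM + 1), where the median of all tested genes was at -0.449 and 1527 genes were higher and 7113 lower.

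Other genes of the 2 families, 15 in a list written for this purpose and 14 of them tested, also split. In culture against fresh 2 were higher, 9 lower and 3 not called, where 29.4% of all tested genes were higher and 28.9% lower. The 2 that rose were Gbp11 and Ifi47. Gbp11, which lies beside Gbp6 and is annotated as a polymorphic pseudogene, was at 6.43, 6.02 and 7.52 TPM in fresh, 70.5, 71.9 and 73.2 in cultured and 72.3, 65.7 and 70.4 in IL-1b-treated libraries. Its levels before and after culture were far apart, with a log2 fold change of 3.68 ± 0.07 (SE, adjusted p = 1.5e-21, edgeR), and 10.3% of its 75-base stretches occur in other genes. Ifi47, an Irg protein also called IRG-47, was at 237 ± 6.995 TPM in fresh, 266 ± 12.3 in cultured and 276 ± 15.7 in IL-1b-treated cells (SD, n = 3), with a log2 fold change of 0.41 ± 0.04 (SE) in culture and 0.38 ± 0.04 with IL-1b.

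Gbp10 went the other way, from 26.0, 28.9 and 29.3 TPM in fresh to 2.01, 0.51 and 0.00 in cultured and 3.48, 2.33 and 0.32 in IL-1b-treated libraries. Of its 75-base stretches 77.8% also occur in other genes, among them Gbp6 and Gm43302, and its counts were not whole in 7 libraries. Gbp5, a partner of inflammasome assembly, fell from 21.0 ± 0.921 to 10.1 ± 0.767 TPM (SD, n = 3, log2 fold change -0.84 ± 0.09 SE). Gbp8 fell from 94.0 ± 2.21 to 51.4 ± 0.607 TPM (log2 fold change -0.72 ± 0.05 SE). The near identical effectors Tgtp1 and Tgtp2 had log2 fold changes of -0.13 ± 0.04 and -0.83 ± 0.05 (SE). As they share most of their sequence, reads may be split unevenly between them, and their sum was 396 ± 8.62 CPM in fresh and 293 ± 11.2 CPM in cultured cells (SD, n = 3). Tgtp1 was not called without fresh replicate 3 or without cultured replicate 3. Irgq, a distant relative, fell (-0.34 ± 0.09) but turned to 0.07 once a trend on GC content and length was removed. Gm12185 (-0.98 ± 0.16) fell too, as did Irgc1 (-2.68 ± 0.83) and Gm4951 (-1.65 ± 0.70), both under 2 TPM in every group; the call of Irgc1 was lost without cultured replicate 1 and that of Gm4951 on leaving out any single library but cultured replicate 1 or IL-1b-treated replicate 1. Gvin1 (-0.04 ± 0.04), Gm12250 (-0.20 ± 0.11) and Gm5431 (-1.05 ± 0.61) were not called, though Gm12250 was without cultured replicate 2, and Gbp2b, at 0.04 TPM or less, was not tested. Of the 75-base stretches of Gvin1 98.3% also occur in other genes and its counts were not whole in 9 libraries, so the split of its reads is uncertain in each comparison.

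With IL-1b against culture alone, 8 of the 14 tested family genes were higher and 6 not called, on normalised counts. Of all tested genes 15.6% were called higher and 13.3% lower. Gbp11 was at 0.27 ± 0.05, Tgtp1 at 0.32 ± 0.04 and Tgtp2 at 0.24 ± 0.05 (log2 fold change ± SE), the sum of the latter pair being 293 ± 11.2 CPM without and 358 ± 8.08 CPM with IL-1b (SD, n = 3). Gbp10, Gbp5, Gm12250 and Gvin1 were called near the threshold or at low counts, and each lost its call under several alternatives; leaving out 1 library ended the call for Gbp5, Gm12250 and Gvin1. On log2(TPM + 1), where 289 of all tested genes were higher and 4452 lower, Gbp11 was at -0.05, Tgtp1 at -0.01, Gbp5 at -0.087, Gm12250 at -0.001 and Gvin1 at -0.215. Gbp10, Ifi47 and Tgtp2 did not change sign on that scale.

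**Figure D3:**
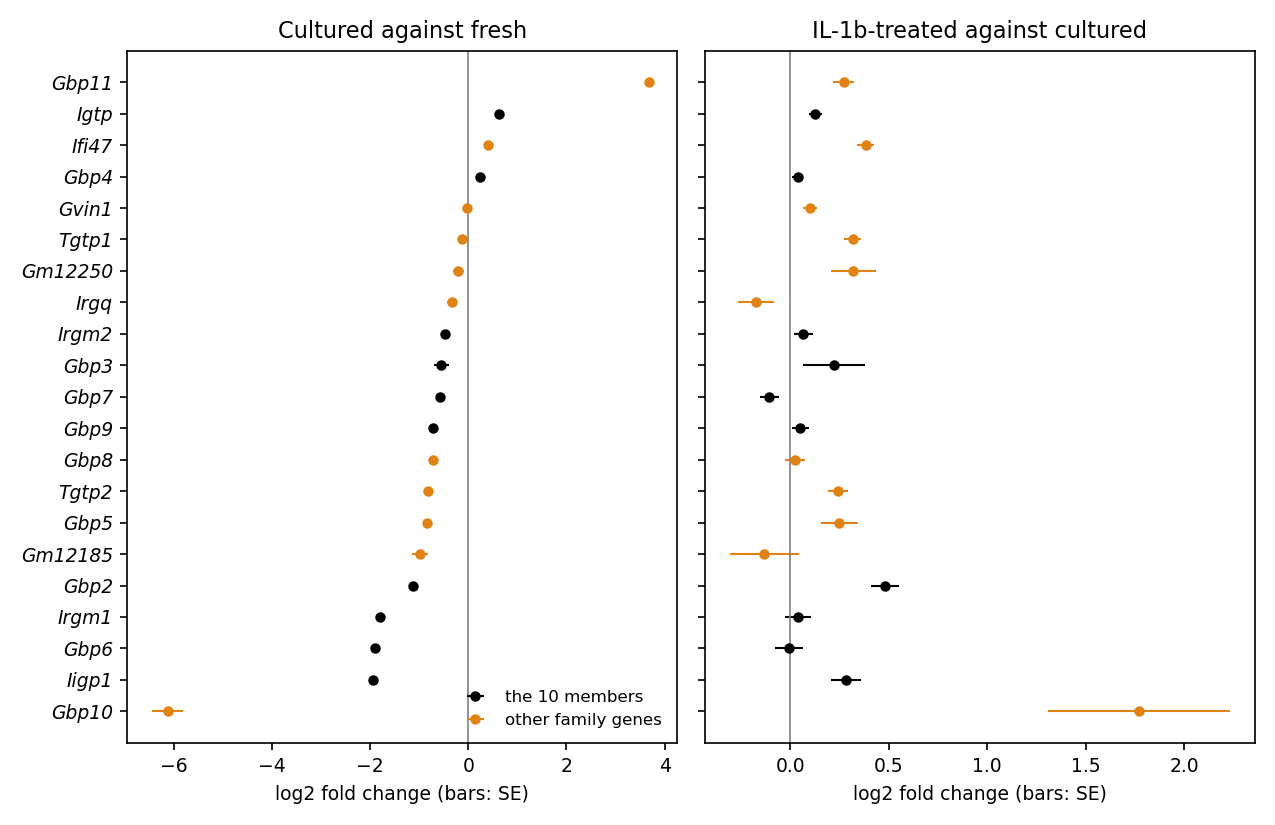
Log2 fold change on normalised counts with its SE for the 10 members (black) and 11 other family genes (orange), in culture against fresh (left) and IL-1b-treated against cultured (right); Irgc1, Gm4951 and Gm5431, all at low counts, are left out and the horizontal axes differ. Gbp11 stands at 3.68 and Gbp10 at -6.13 on the left, and Gbp2 at 0.48 is the highest member on the right.

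The interferon ligands themselves were at or near 0. Interferon gamma, Ifng, had 4, 0 and 2 expected counts in the fresh libraries and 0 in each of the 6 cultured ones, where a library allows up to 3 counts, or 0.168 to 0.202 CPM. None of the 10 ligands in the list passed the filter for testing.

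Of 8 interferon receptor and JAK-STAT genes, 2 were higher in culture, 5 lower and 1 not called. Over all tested genes 29.4% were higher and 28.9% lower in that comparison. Ifngr1, the ligand binding chain of the interferon gamma receptor, rose from 78.8, 72.9 and 83.5 TPM to 412, 404 and 394 in cultured and 376, 369 and 366 in IL-1b-treated libraries, a log2 fold change of 2.64 ± 0.03 (SE, adjusted p = 1.64e-24, edgeR) in culture.

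The kinase Jak2 rose by 0.64 ± 0.05 in culture, while Tyk2 fell (-0.79 ± 0.06), as did Jak1 (-0.20 ± 0.02), Stat2 (-0.58 ± 0.06), Ifnar2 (-0.48 ± 0.07) and Ifngr2 (-0.30 ± 0.07, log2 fold change ± SE). Ifnar1 was at 0.00 ± 0.04. After removal of the GC and length trend Jak1 was at 0.06 and Ifngr2 was not called. With IL-1b, Ifngr1 was at 0.24 ± 0.03 against culture alone, or at -0.12 on log2(TPM + 1).

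Of the 8 interferon regulatory factors 6 fell in culture and 2 were not called, where 28.9% of all tested genes were called lower. Irf1 recognises the ISRE motif, and its binding to the members' promoters was not measured. Its TPM was 266, 267 and 267 in fresh, 116, 119 and 110 in cultured and 96.8, 102 and 107 in IL-1b-treated libraries. The fresh libraries stood apart, with a log2 fold change in culture of -0.93 ± 0.04 (SE), and with IL-1b it was at 0.16 ± 0.04 on normalised counts and -0.17 on log2(TPM + 1). Irf9, the DNA binding subunit of the type I complex, went from 132 ± 3.75 to 46.8 ± 2.07 TPM (log2 fold change -1.12 ± 0.05 SE). Irf7 was at -2.03 ± 0.08 and Irf8, low in T cells, at -3.70 ± 0.32. Irf2, which competes with Irf1 for the same site, was at -0.14 ± 0.06 (SE, adjusted p = 0.0559, edgeR), and was called without IL-1b-treated replicate 1 or 3.

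**Figure D4:**
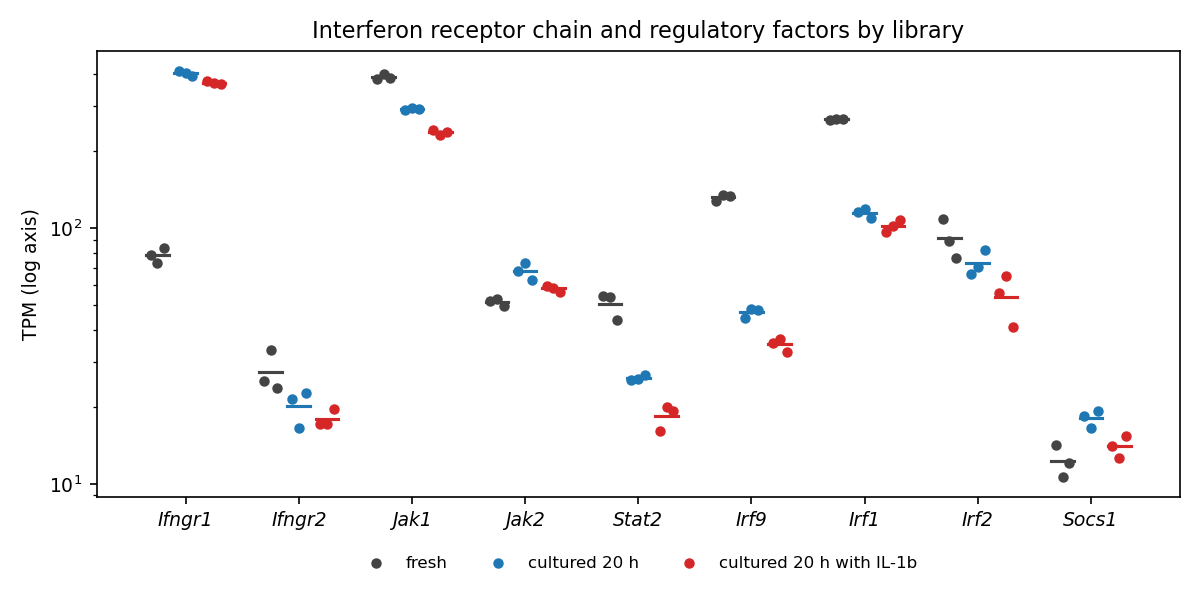
TPM (log axis) of 9 genes of the interferon signalling chain in the 9 libraries, with 1 point per library and a line at each group mean; dark grey is fresh, blue cultured 20 h and red cultured 20 h with IL-1b. Ifngr1 rises from 78.4 to 403 TPM between fresh and cultured cells.

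Of the 8 negative regulators of interferon signalling 2 rose in culture, 5 fell and 1 was not called. The shares over all tested genes were 29.4% higher and 28.9% lower. Socs1, an inhibitor of the kinases, rose by 0.78 ± 0.11 and Pias1, a SUMO ligase, by 0.60 ± 0.05, while the phosphatase Ptpn6 (-1.28 ± 0.05) and Usp18, which blocks the type I receptor (-1.78 ± 0.13), fell (log2 fold change ± SE). Of 16 tested other interferon gamma-induced genes 2 rose, 11 fell and 3 were not called, with the peptide transporter Tap1 at -1.02 ± 0.04 and the class I activator Nlrc5 at -0.81 ± 0.03. The 2 that rose were B2m, the light chain of class I molecules (0.37 ± 0.03, or -0.17 once a trend on GC content and length was removed), and the peptidase Lap3 (0.29 ± 0.12), which missed the threshold without fresh replicate 1 or 3, or without cultured replicate 2 or 3.

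Of 27 type I interferon-induced genes 23 fell in culture, 3 rose and 1 was not called, with a median log2 fold change of -1.58. All tested genes had a median of 0.00 in culture, with 29.4% called higher and 28.9% lower. Oas2 and Oas3, sensors of double-stranded RNA, were at -3.33 ± 0.15 and -2.59 ± 0.15, and Ifi27l2a at 0.39 ± 0.08 and Ifi35 at 0.28 ± 0.06 were among those that rose (SE). Ifi27l2a and Ifi35 were not called on log2(TPM + 1).

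Of 14 autophagy genes that bring the GTPases to vacuoles 9 rose in culture, 3 fell and 2 were not called. Among all tested genes 29.4% were called higher and 28.9% lower. Map1lc3b, whose protein marks autophagosomes, rose by 0.61 ± 0.04 and its relative Gabarap by 0.48 ± 0.05, whereas the conjugating enzyme Atg3 was at -0.34 ± 0.07 and Atg7 at -0.38 ± 0.12 (log2 fold change ± SE), the call of Atg7 being lost without fresh replicate 3 or cultured replicate 2. Of 5 tested inflammasome genes linked to guanylate binding proteins 4 fell and 1 was not called, with the DNA sensor Aim2 at -1.50 ± 0.11 and the protease Casp1 at -3.16 ± 0.36.

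With IL-1b against culture alone the genes of these lists that were not called numbered 5 of 8 receptor and JAK-STAT genes, 5 of 8 regulatory factors, 6 of 8 negative regulators, 7 of 16 other interferon gamma-induced genes, 22 of 27 type I genes, 6 of 14 autophagy genes and 5 of 5 inflammasome genes. Of all 13043 genes tested 9275 were not called and 28.9% were called either way. Of the autophagy genes 7 were called higher and 1 lower on normalised counts, with a median log2 fold change of 0.13, and the list's median difference in TPM was -0.14.

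The 5 genes outside the set whose profile over the 9 libraries was most like the members' mean standardised profile, by Pearson's r, were Samd9l (0.995), Ifit1bl1 (0.992), Irf1 (0.991), Parvg (0.991) and Dnajb1 (0.989). They were ranked among 9012 tested genes with a mean of at least 5 TPM in a group and no Gm or Rik model name. These correlations describe libraries that fall into 3 groups and share scaling. Samd9l and Ifit1bl1 are interferon-induced, Parvg encodes an adhesion adaptor and Dnajb1 a heat shock co-chaperone. Samd9l went from 99.6 to 46.2 and 43.4 TPM in fresh, cultured and IL-1b-treated cells, and Dnajb1 from 92.7 to 37.2 and 32.8 TPM. Among the members themselves r with that mean profile was 0.84 to 0.99 for 8, and -0.92 for both Igtp and Gbp4. As the mean is taken over these same members, most of which fell in culture, these values follow in part from its construction.

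Markers of other cell types also differed between the groups. For culture against fresh, 29.4% of all tested genes were called higher and 28.9% lower. All 12 naive CD4 T cell markers were present in every group, with a summed level of 7000 to 7090 CPM in fresh, 6620 to 6670 in cultured and 7050 to 7140 in IL-1b-treated libraries. The 14 B cell markers summed to 185 to 246 CPM in fresh, 11.8 to 15.8 in cultured and 11.9 to 12.9 in IL-1b-treated libraries, and 14 of the 14 were lower in culture. Of 10 tested myeloid markers 7 were lower in culture, the 12 summing to 185 to 189, 181 to 186 and 253 to 260 CPM, with Cd14 at 0 after culture. Most of that sum came from 2 genes, Ctss at 133 ± 1.81, 140 ± 3.44 and 197 ± 5.01 CPM and Cst3 at 22.3 ± 2.01, 39.9 ± 1.58 and 55.9 ± 3.34 CPM (SD, n = 3). Lyz2 went from 8.67 to 0.083 and 0.090 CPM, Cybb from 5.01 to 0.275 and 0.324, and Mpeg1 from 4.68 to 0.144 and 0.136. Neutrophil markers fell from 10.2 to 19.1 CPM to at most 0.436 in cultured and 1.01 in IL-1b-treated libraries, with 4 of 4 tested lower, and Camp, Lcn2 and Retnlg were at 0 in both. NK cell markers went from 62.4 to 70.0 CPM to 15.2 to 20.3 and 15.0 to 19.1 CPM, with 4 of 5 tested lower. Most of the NK sum came from 1 gene, Prf1, at means of 52.25, 11.69 and 11.81 CPM. Nkg7, at 1.99, 3.47 and 3.38 CPM, was not called. Ncr1, Klrb1c, Klra8 and Klre1 had means of 0.338 CPM or less in every group and were not tested. CD8 T cell markers rose from 24.8 to 27.3 CPM to 48.4 to 60.0 and 56.9 to 64.9 CPM, with 2 of 3 higher. Of 10 endothelial and stromal markers only Pecam1 was tested, and it was higher, with means of 285, 386 and 388 CPM. The rest of that list had means of 0.228 CPM or less, with 5 of the 10 at 0 in fresh, 7 in cultured and 7 in IL-1b-treated cells. The part of these cells in the members' results was not tested.

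Total expected counts were 13518814 to 23056686 per library. The count-weighted median effective length was 2359 to 2380 bases in fresh, 2100 to 2136 in cultured and 1781 to 1794 in IL-1b-treated libraries, and the mitochondrial share 1.99 to 2.03%, 2.41 to 2.59% and 3.11 to 3.40%. Effective length entered only through refits with an effective length offset and with each library's GC content and length trend removed. With the offset, Igtp and Iigp1 lost their calls in IL-1b against culture and Gbp3 its call in culture against fresh. With the trend removed, Gbp4 was called higher in IL-1b against culture (0.10, adjusted p = 0.0125, edgeR). The part of the mitochondrial share in the members' results was not tested.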

How the data were processed

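Libraries of polyadenylated RNA were made with a strand-marking kit (NEBNext Ultra II Directional), per the labels' protocols. STAR and RSEM were used on mm10, per the submitters' processing notes. Their versions, the annotation and the strand setting were not given in the sources used here, and antisense overlaps may share reads. The deposited tables hold, per the file headers, RSEM expected counts, which divide shared reads among genes. They also hold TPM values, deposited as RSEM made them, scaled to transcript length and library. FPKM values were not used.

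Symbols came from GENCODE M21 on GRCm38, the same assembly as mm10 (55141 of 55487 identifiers, 99.38%). Expected counts were rounded to whole numbers and tested with edgeR 4.0.16 in R 4.3.3 (TMM, filterByExpr, quasi-likelihood F test, all 9 libraries, group as sole term, p adjusted by Benjamini-Hochberg, threshold 0.05), leaving 13043 genes and a biological coefficient of variation of 0.0665. CPM are TMM-normalised; medians on the TPM scale use log2(TPM + 0.5). Alternatives used DESeq2 1.42.0, limma 3.58.1 and mgcv 1.9.3, and sequences were searched with Biopython 1.88. The fit was tested on simulated data. Deviations of same-numbered libraries from their group means correlated at -0.022 to 0.019, and those of differently numbered libraries at -0.051 to 0.033. With 3 libraries per group, such values cannot settle whether same-numbered libraries share an origin.

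The members, gene lists and tests were chosen with earlier results of these data known. The text names all members, tested family genes, a fixed panel of signalling genes (1 gene of the receptor list is not reported here and is left out of its counts), up to 2 called genes each way per pathway list with the smallest adjusted p in culture against fresh (other comparisons are given as list counts) and the 5 genes most like the mean profile. Summing loci that share sequence was chosen after seeing the data. Promoters are RefSeq's for GRCm38.p6.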

Additional observations from a re-analysis of the deposited data

How the results depend on the processing

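Of the 25 alternatives, 24 refitted the data and 1 asked for an absolute log2 fold change of at least 1; 687 of the members' values kept their direction and their side of the threshold. The counts of members called stayed within 1.5 times except as given here, and the cause of each shift was not tested. On log2(TPM + 1) and log2(TPM + 0.1) alike, 9 members were called in culture against fresh (1 higher, 8 lower), 7 with IL-1b against culture (0 higher, 7 lower) and 9 with IL-1b against fresh (1 higher, 8 lower). Most calls over all tested genes were lower too. On log2(TPM + 1) they were 1877 higher and 4842 lower, 289 and 4452, and 1527 and 7113, in that order. With library size alone 3 were called with IL-1b against culture, 1 higher and 2 lower, where 1191 of all tested genes were higher and 3273 lower. With an effective length offset 1 was, Gbp2, where 1234 of all tested genes were higher and 917 lower. At an absolute log2 fold change of at least 1 the counts were 4, 0 and 3, against 1654, 116 and 2563 of all 13043 tested genes. Leaving out each library in turn gave 10 to 10, 3 to 3 and 9 to 10 members, against 7035 to 7835, 3024 to 3698 and 8109 to 8539 of all genes. Whether same-numbered libraries share an origin is not known. With the replicate number as a block 10, 3 and 9 members were called, and 7485, 3652 and 8454 of all genes against 7594, 3768 and 8539.

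Log2 differences that changed sign were these. After removing each library's GC content and length trend they were B2m -0.169, Irgq 0.072 and Jak1 0.063 for culture against fresh, Gbp6 0.007 and Irgm1 -0.005 for IL-1b against culture, Irgq 0.184 for IL-1b against fresh. With the effective length offset they were Ifnar1 -0.023 for culture against fresh, Gbp4 -0.004 for IL-1b against culture, Gbp3 0.004 for IL-1b against fresh. With library size alone they were Ifnar1 -0.049 for culture against fresh, Gbp4 -0.078, Gbp9 -0.064, Irgm1 -0.076, Irgm2 -0.05 and Gvin1 -0.015 for IL-1b against culture. On log2(TPM + 1) they were Gbp4 -0.079 and Ifnar1 -0.264 for culture against fresh, Gbp4 -0.312, Gbp9 -0.221, Igtp -0.198, Iigp1 -0.108, Irgm1 -0.271, Irgm2 -0.245, Gbp11 -0.05, Gbp5 -0.087, Gm12250 -0.001, Gvin1 -0.215, Ifngr1 -0.122, Irf1 -0.168 and Tgtp1 -0.012 for IL-1b against culture, Gbp4 -0.391 and Tgtp1 -0.373 for IL-1b against fresh. On log2(TPM + 0.1) they were Gbp4 -0.08 and Ifnar1 -0.267 for culture against fresh, Gbp4 -0.314, Gbp9 -0.226, Igtp -0.199, Iigp1 -0.117, Irgm1 -0.282, Irgm2 -0.252, Gbp11 -0.051, Gbp5 -0.095, Gm12250 -0.001, Gvin1 -0.218, Ifngr1 -0.123, Irf1 -0.169 and Tgtp1 -0.012 for IL-1b against culture, Gbp4 -0.394 and Tgtp1 -0.376 for IL-1b against fresh. Gbp6 was at 0.012 for IL-1b against culture with loci that share sequence summed. Leaving out single libraries turned the sign of values near 0, within ranges of -0.068 to 0.01 for Gvin1 in culture against fresh, -0.024 to 0.025 for Ifnar1 in culture against fresh, -0.068 to 0.03 for Gbp6 in IL-1b against culture and -0.019 to 0.076 for Irgm1 in IL-1b against culture. Low counts limit the precision of Irgc1, Gm4951 and Gm5431, among others.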
